A study of Rattus norvegicus with 51 samples.

Results

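The nuclear genes for the mitochondrial respiratory chain and the ATP synthase were followed through engineered tissues of neonatal rat ventricular myocytes. A gene was taken if its single symbol in the deposited annotation began with Nduf, Uqcr, Atp5 or Cox4 to Cox8, or was one of Sdha to Sdhd, and the probe set with the highest mean signal stood for it. This gave 88 of 18602 genes, of which 43 belong by name to complex I, 4 to complex II, 7 to complex III, 17 to complex IV and 17 to complex V. By role, 65 were ordinary structural subunits, 7 were core subunits of complex I, 5 were alternative isoforms of complex IV subunits, 7 were assembly or associated factors, 3 were copies or copy-like entries (Ndufb4-ps1, Ndufb4l1 and Cox6c1) and 1 was no respiratory gene at all. That last one, Cox4nb, is listed as Emc8 in RefSeq and encodes a subunit of the endoplasmic reticulum membrane complex.

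The cells came from Sprague-Dawley rats and were grown on silicone membranes. Anisotropic tissues, on a fibronectin micropattern, were stretched transversely, stretched longitudinally or left unstretched. Isotropic tissues, on an even fibronectin coat, were stretched or left unstretched. Each was kept for 6, 24 or 96 h, which makes 15 groups. The baseline was isotropic tissue after 1 h of attachment, called 0 h. Cells came from 6 harvests, each of which gave 1 array at 0 h, and the later groups had 3 arrays each, from 3 harvests. All tissues shared one medium, whose serum was 10% up to 48 h in culture and 2% later, and 1 µg of total RNA was labelled per array. The labels name no genetic change in any group. How far and how fast tissues were stretched, and how old the pups were, is not stated in the labels.

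The respiratory chain passes electrons from NADH (complex I) or succinate (complex II) through complex III to cytochrome c and on to oxygen at complex IV, and complexes I, III and IV pump protons out of the matrix. Complex V, the ATP synthase, lets the protons back in and makes ATP. Heart muscle depends on this pathway for most of its ATP, and its mitochondria mature around birth. Several subunits of complex IV exist in pairs: Cox6a2 and Cox8b are the heart and muscle isoforms of Cox6a1 and Cox8a, and Cox4i2 is an oxygen-responsive alternative to Cox4i1.

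Values are log2 signals, so a difference of 1 is a doubling, and the log2 changes quoted below are fitted with a term for harvest, with their standard error (SE). A gene was counted as higher or lower where limma's Benjamini-Hochberg adjusted p over all 18602 genes was below 0.05. Array medians ran from 5.31 to 5.43, and the lowest Pearson's r between arrays across genes was 0.9548. The precision is limited by the number of arrays, and the labels say that the 3 arrays of a group came from separate harvests. The label of cardiac muscle was borne out by its markers: the mean log2 signal of 12 cardiomyocyte genes lay between 11.75 and 11.9 at 0 h and between 11.05 and 11.65 in unstretched anisotropic tissue at 96 h, against a median of 5.97 over all genes. Of the 88 genes, 84 lay above that median in mean signal; Cox4i2, Cox6c1, Cox8c and Ndufb4l1 lay below it.

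Arrays of 2 isotropic groups went against their labels. On a scale built from unstretched anisotropic tissue, on which its 24 h group lies at 0 and its 96 h group at 1, the 24 h isotropic stretched replicate 1 lay at 0.902, against 0.067 and 0.056 for the other arrays of its group. The 96 h isotropic unstretched replicate 1 lay at 0.216, against 1.034 and 1.007. Both are from harvest 1. Totals over the 88 genes in direct comparisons of groups that rest on them are given as labelled, with the 2 arrays exchanged, and with both left out. Named calls lost without them are given in the same way. Counts by complex, role, brightness, promoter, list or marker, and differences of responses, are not given with these arrays exchanged or left out. A further array stood apart within the anisotropic tissues. In the transversely stretched group at 24 h, the median of the 88 genes relative to 0 h was -0.182, -0.565 and -0.217 in replicates 1, 2 and 3, and medians and counts that rest on replicate 2 are given with and without it.

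Respiratory transcripts were lower in culture than in freshly attached cells, and the number past the threshold was larger at the later times. In unstretched isotropic tissue at 6 h, 4 of the 88 genes were lower than at 0 h and 3 higher. At 24 h it was 35 lower and 3 higher, and at 96 h it was 44 lower and 3 higher. Over all 18602 genes, 12.5% were lower and 19.1% higher at 6 h, 16.1% lower and 20.8% higher at 24 h, and 16.1% lower and 21.8% higher at 96 h. The median log2 change of the 88 genes was -0.07 at 6 h, -0.16 at 24 h and -0.19 at 96 h, while that of all genes was -0.01, 0.02 and 0.04 at the same times. Values below 0 were found for 72, 78 and 77 of the 88 genes. These 3 comparisons share the 0 h arrays. In bulk tissue, fewer cells of a type and less RNA per cell cannot be told apart. Leaving out the 6 h replicate 1 or replicate 3 brought the 6 h count of 7 to 4 or 3, and without replicate 3 it was split into 2 higher and 1 lower. With the 2 isotropic arrays exchanged or left out, the 96 h comparison had 48 or 42 genes lower and 2 higher.

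**Figure D1:**
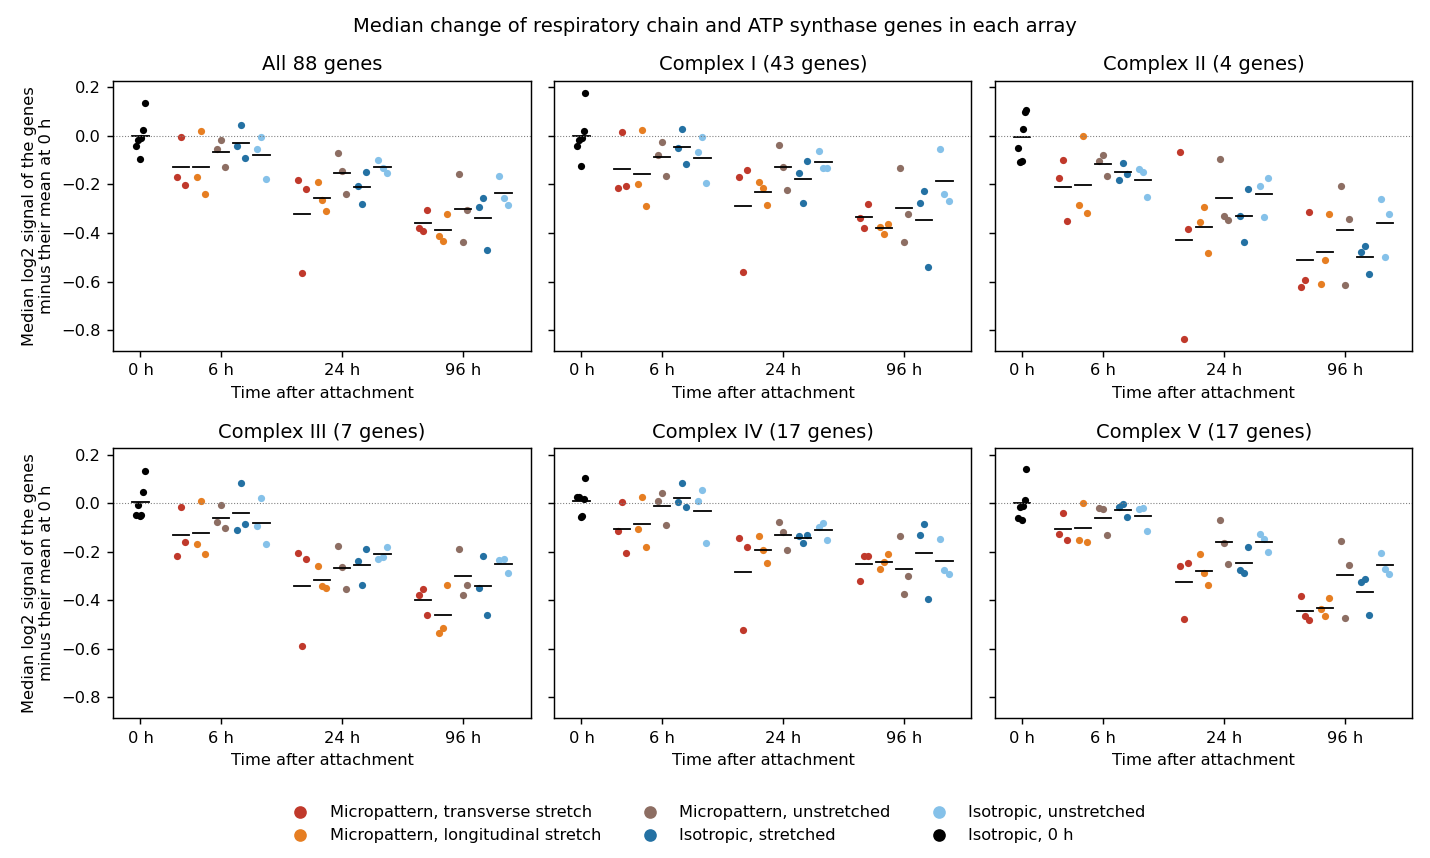
Median log2 signal of all 88 genes (first panel) and of complexes I to V (other panels) in each array, relative to the 0 h mean, on the vertical axis, by group on the horizontal axis. Points are arrays and bars are group means. Medians for all 88 genes at 96 h lie between -0.469 and -0.156, and replicate 2 of the 24 h transverse group is at -0.565.

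Genes of all 5 complexes were among those lower. At 96 h, 18 of 43 complex I genes were lower, as were 3 of 4 in complex II, 5 of 7 in complex III, 8 of 17 in complex IV and 10 of 17 in complex V, with median log2 changes of -0.17, -0.32, -0.24, -0.17 and -0.25 for complexes I to V. At 24 h the numbers lower were 15, 2, 4, 6 and 8. The genes higher at 96 h were 1 in complex I (Ndufaf1) and 2 under complex IV names (Cox6a2 and Cox4nb). The brighter 44 of the 88 genes held 26 lower at 96 h and the dimmer 44 held 18, so the falls were not limited to faint probe sets.

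In complex I the NADH-binding core fell. Ndufv1, which carries the NADH and flavin site, averaged 10.96 ± 0.083 at 96 h (SD, n = 3) and 11.39 ± 0.094 at 0 h (SD, n = 6), a log2 change of -0.41 (SE 0.07, limma adjusted p = 7.2e-06). Ndufs1, the large iron-sulphur subunit next to it, changed by -0.32 (SE 0.09, adjusted p = 0.00365), and the groups did not overlap in either gene. Of the 7 core subunits, 4 were lower at 24 h and 5 at 96 h. The remaining 2 at 96 h were Ndufs3, with a log2 change of 0.00, and Ndufs8, with -0.17 (adjusted p = 0.117). Ndufs6, an accessory subunit that binds zinc, had the largest fall of the complex, by 0.52 on the log2 scale (SE 0.11). Ndufab1, the mitochondrial acyl carrier protein, was lower at 24 h (log2 change -0.26), while its 96 h value of -0.17 had an adjusted p of 0.117. Ndufa4, now known to sit in complex IV, was at -0.15 at 96 h with an adjusted p of 0.0792.

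In complex II, which also serves the tricarboxylic acid cycle, both catalytic subunits were lower at 24 h, and a membrane anchor was lower as well at 96 h. Sdhb, the iron-sulphur subunit, had log2 signals of 10.38, 10.23 and 10.29 at 96 h, against 10.63 to 10.94 at 0 h. All 3 arrays lay below the lowest 0 h array. The log2 change was -0.42 (SE 0.08, limma adjusted p = 8.2e-05), and that of Sdha, the flavoprotein, was -0.35 (SE 0.08). The membrane anchor Sdhd changed by -0.29 (adjusted p = 0.0218), and the other anchor, Sdhc, by -0.16 (adjusted p = 0.322), with groups that overlapped. In complex III, the core protein Uqcrc1 had 10.66, 10.48 and 10.69 at 96 h, against 10.89 to 11.30 at 0 h, again without overlap. Its log2 change was -0.39 (SE 0.08). Uqcrc2, its partner, changed by -0.42 (SE 0.06) and the Rieske iron-sulphur protein Uqcrfs1 by -0.36 (SE 0.13, adjusted p = 0.0249). The Uqcrfs1 call was kept with the 2 isotropic arrays exchanged but lost with both left out (-0.34, adjusted p = 0.0771), and also without the 0 h replicate 5 or the 96 h replicate 1 or 2.

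In the ATP synthase the 3 genes that encode the same c-ring subunit all fell, Atp5g1 by the largest amount. Atp5g1 had log2 signals of 10.05, 9.91 and 9.59 at 96 h and a median of 10.40 at 0 h (lowest 10.25, highest 10.76). Every 96 h array lay below every 0 h array. The log2 change was -0.63 (SE 0.08, limma adjusted p = 1.2e-07), which is 1.55-fold lower, and it was already -0.23 at 6 h and -0.55 at 24 h. Atp5g3 changed by -0.43 and Atp5g2 by -0.37 at 96 h. The catalytic subunits Atp5a1 and Atp5b, the alpha and beta chains of the head, both changed by -0.25 (SE 0.06 and 0.05). Atp5i, a subunit of the membrane part, fell by 0.46 on the log2 scale. Atp5s, a factor listed as Dmac2l in RefSeq, was lower at 24 h (log2 change -0.29) and at -0.12 at 96 h (adjusted p = 0.456).

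Against this background 4 genes were higher in culture at 1 or more times. Cox6a2, the heart isoform of a regulatory complex IV subunit, had log2 signals of 11.57 to 11.78 at 0 h, 12.18, 12.10 and 11.998 at 24 h, and 12.05, 11.97 and 11.95 at 96 h. Both later groups lay wholly above 0 h. It changed by 0.38 (SE 0.06, limma adjusted p = 5.2e-06) at 24 h and 0.30 (SE 0.06) at 96 h. Its widely expressed counterpart Cox6a1 had 11.90, 11.75 and 11.73 at 24 h, against 11.84 to 12.12 at 0 h, and a log2 change of -0.22. Ndufaf1, an assembly factor that helps build the membrane arm of complex I, had 7.64 to 8.11 at 0 h, 8.13, 8.37 and 8.37 at 6 h, 8.38, 8.45 and 8.57 at 24 h, and 8.20, 8.18 and 8.27 at 96 h. Its log2 change was 0.43, 0.56 and 0.36 at the 3 times (SE 0.09 each), and no array overlapped with 0 h. A second assembly factor of complex I, Ndufaf4, passed at 6 h (0.40, SE 0.13, adjusted p = 0.0126) but not at 24 h (0.26) or 96 h (0.20). Cox4nb was higher at all 3 times as labelled, by 0.33, 0.39 and 0.30, with overlap at 24 and 96 h. Its 96 h call was lost with the 2 isotropic arrays exchanged (0.12, adjusted p = 0.241), with both left out (0.15, adjusted p = 0.235), without the 96 h replicate 1 alone and without a harvest term.

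Complex IV held the largest fall of all 88 genes, and it lay in an isoform. Cox8b, the muscle form of a small membrane subunit, had a median log2 signal of 10.54 at 0 h (lowest 10.22, highest 10.72). It had 10.46, 10.61 and 10.03 at 6 h, 9.99, 10.09 and 9.72 at 24 h, and 9.55, 9.07 and 8.41 at 96 h. Groups overlapped at 6 h and were apart at 24 and 96 h. The log2 change was -0.81 (SE 0.20) at 24 h and -1.60 (SE 0.20, limma adjusted p = 3e-08) at 96 h, 3.03-fold lower. Cox8a, the widely expressed form, had 12.31, 12.29 and 12.06 at 96 h, against 12.18 to 12.43 at 0 h, and a log2 change of -0.17 (SE 0.06, adjusted p = 0.0293) with overlapping groups. That call was lost with the 2 isotropic arrays exchanged (-0.14, adjusted p = 0.0712), with both left out (-0.16, adjusted p = 0.0771), without the 0 h replicate 3 or 5, without the 96 h replicate 1 or 3, and without a harvest term. Cox8b and Cox6a2, both muscle isoforms, thus went opposite ways. The oxygen-responsive Cox4i2 had 5.07 to 5.59 at 0 h, 4.70, 4.63 and 4.88 at 6 h, 4.99, 4.86 and 4.63 at 24 h, and 4.80, 4.35 and 4.53 at 96 h. Every later array was below the 0 h range, and the 96 h change was -0.81 (SE 0.12), at signals under the median of all genes. Among the other subunits, Cox4i1 changed by -0.30 (SE 0.09), Cox5b by -0.34 (SE 0.07) and Cox5a by -0.22 at 96 h; the Cox4i1 and Cox5a calls were lost without the 96 h replicate 2. Cox6b2, an isoform known from testis, changed by -0.47, whereas Cox7a2 was at -0.11 (adjusted p = 0.186) and Cox7a2l, which links complexes III and IV into supercomplexes, at -0.02.

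**Figure D2:**
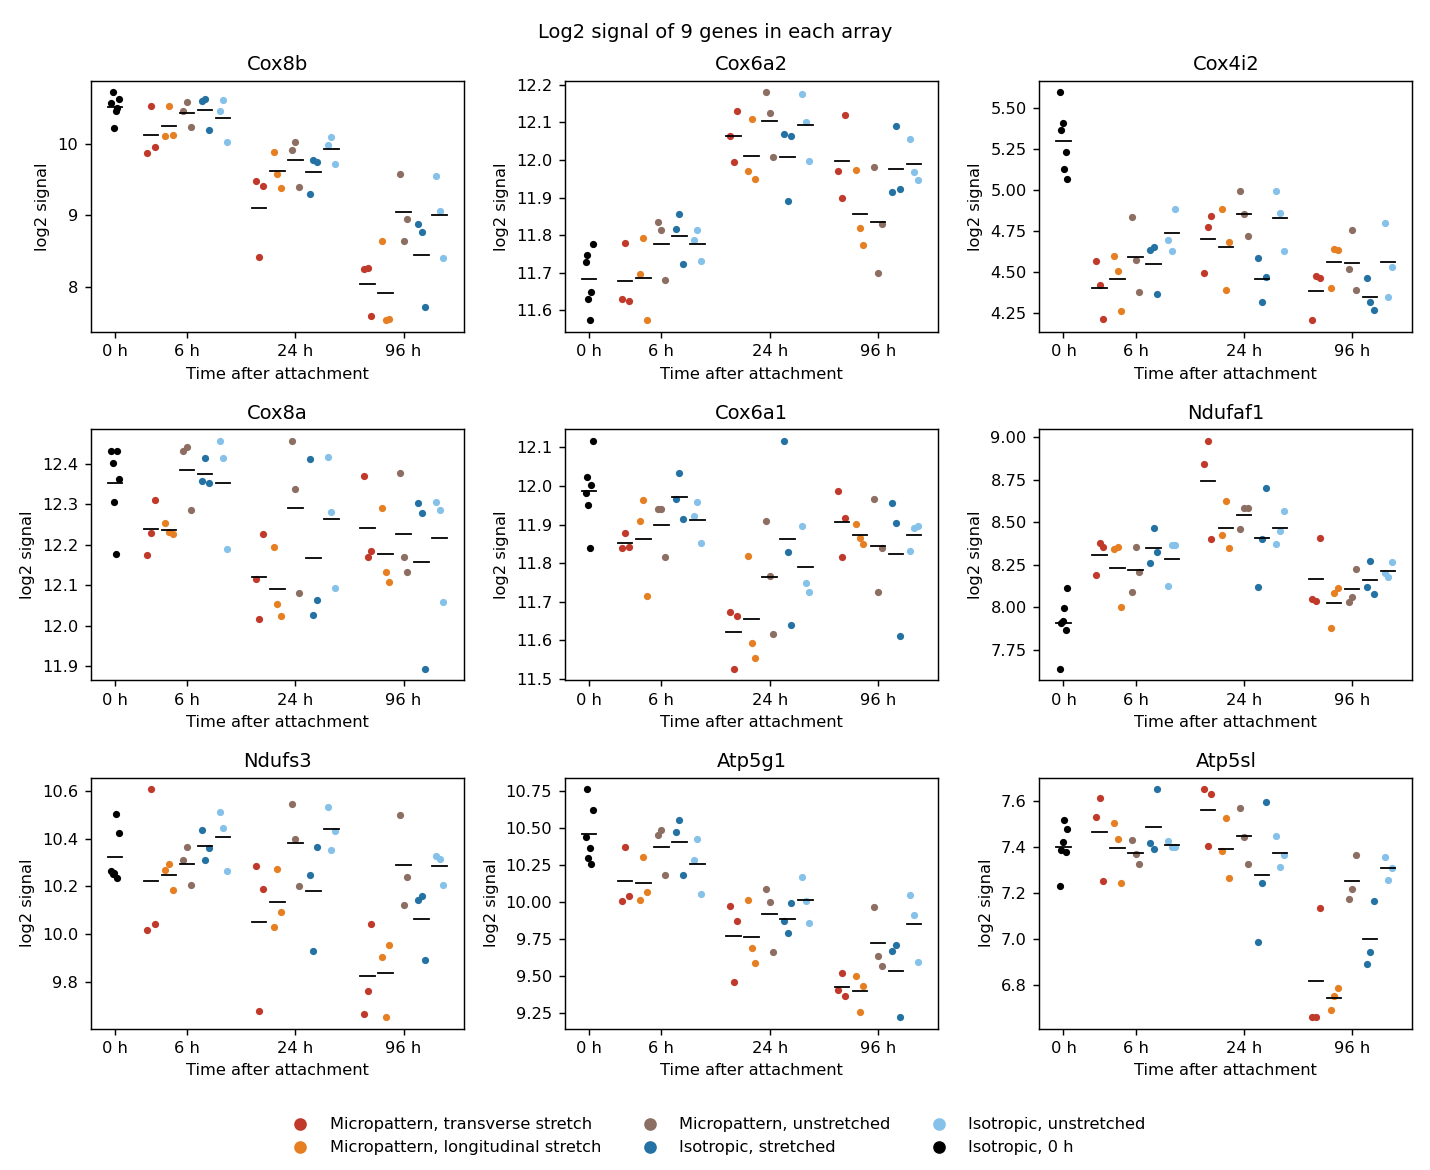
Log2 signal (vertical axis) of 9 genes in each array, by group on the horizontal axis, 1 panel per gene. Points are arrays. Cox8b at 96 h is at or below 9.57 in every array, whereas Cox6a2 at 24 h in unstretched isotropic tissue is at 11.998 or above.

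The promoters of 4 complex IV genes are shown: Cox8b, for its fall, Cox8a, as its counterpart, Cox5b, which was called under stretch in all 3 tissues as given further on, and Cox4i1, which starts next to Cox4nb. Sequences are from RefSeq, assembly GRCr8, 250 bases before to 50 after the gene's start, 5′ to 3′ on the gene's strand. They lie at chr1:205408224-205408523 (minus strand) for Cox8b, chr1:213833574-213833873 (minus) for Cox8a, chr9:46417587-46417886 (plus) for Cox5b and chr19:65630133-65630432 (plus) for Cox4i1. Capitals mark matches on either strand to CATGCGC (NRF1), CCGGAAG (ETS factors), AAGGTCA (ERR), TGACGTCA (CRE) or AAGATGGCG (YY1), motifs of factors known to serve such genes.
Cox8b: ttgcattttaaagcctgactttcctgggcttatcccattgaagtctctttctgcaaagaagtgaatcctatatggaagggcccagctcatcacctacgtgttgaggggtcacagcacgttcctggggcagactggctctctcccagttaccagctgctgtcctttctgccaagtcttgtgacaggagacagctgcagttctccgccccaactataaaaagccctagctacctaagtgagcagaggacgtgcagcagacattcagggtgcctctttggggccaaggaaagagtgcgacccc
Cox8a: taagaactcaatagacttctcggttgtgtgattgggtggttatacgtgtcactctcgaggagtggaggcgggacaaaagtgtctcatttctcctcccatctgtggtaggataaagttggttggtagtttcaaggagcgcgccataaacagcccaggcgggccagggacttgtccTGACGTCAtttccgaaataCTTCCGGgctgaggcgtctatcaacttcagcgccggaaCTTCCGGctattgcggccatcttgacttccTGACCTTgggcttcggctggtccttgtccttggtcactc
Cox5b: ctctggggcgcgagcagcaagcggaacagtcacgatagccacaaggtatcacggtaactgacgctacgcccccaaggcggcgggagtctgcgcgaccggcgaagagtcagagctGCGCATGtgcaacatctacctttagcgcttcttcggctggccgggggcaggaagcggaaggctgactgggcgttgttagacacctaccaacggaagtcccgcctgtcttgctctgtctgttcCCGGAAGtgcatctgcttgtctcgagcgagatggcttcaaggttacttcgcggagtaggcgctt
Cox4i1: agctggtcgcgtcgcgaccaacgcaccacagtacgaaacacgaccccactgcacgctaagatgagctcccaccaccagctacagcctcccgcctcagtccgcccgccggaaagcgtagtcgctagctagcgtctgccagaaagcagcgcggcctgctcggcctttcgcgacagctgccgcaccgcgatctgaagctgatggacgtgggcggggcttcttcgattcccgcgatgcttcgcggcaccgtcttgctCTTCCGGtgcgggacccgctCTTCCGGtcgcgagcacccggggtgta

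Cox8a holds 2 ETS, 1 ERR and 1 CRE match, Cox5b 1 NRF1 and 1 ETS match, Cox4i1 2 ETS matches, and Cox8b none of the 5. A promoter was matched for 76 of the 88 genes. NRF1 letters were in 17.1% of them and 3.9% of all 27457 promoters, ETS letters in 28.9% and 9.2%, ERR letters in 14.5% and 4.4%, CRE letters in 5.3% and 1.9%, and YY1 letters in 13.2% and 1.9%. Of the 41 promoters with any match, 24 belonged to genes lower at 96 h than at 0 h, and of the 35 without, 16 did. Cox4i1 and Cox4nb start 148 bases apart on opposite strands, with log2 changes at 96 h of -0.30 and 0.30 as labelled; the Cox4nb change was 0.12 with the 2 isotropic arrays exchanged and 0.15 with both left out, and was then not called.

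Other mitochondrial genes, on lists drawn up with earlier results of these data known, did not all follow. For reference, 12.5%, 16.1% and 16.1% of all genes were lower at 6, 24 and 96 h, and 19.1%, 20.8% and 21.8% higher. At 96 h against 0 h, 12 of 15 tricarboxylic acid cycle genes were lower and none higher (median -0.30), 5 of 13 electron carrier and quinone genes were lower and 1 higher, and 6 of 11 genes that export energy from the matrix were lower and 2 higher. Genes of the mitochondrial ribosome, which translates the subunits encoded in mitochondrial DNA, went the other way: 26 of 66 were higher and 2 lower at 6 h, 40 higher and 0 lower at 24 h, and 20 higher and 4 lower at 96 h, with medians of 0.19, 0.28 and 0.16. The list of 21 assembly factors shares the Ndufaf genes with the respiratory genes. On it, 7 were higher at 6 h, 7 at 24 h and 4 at 96 h, and 1 was lower, at 96 h. The higher count at 96 h is near the share of all genes. Among 21 regulators of mitochondrial biogenesis 8 were higher and 4 lower at 6 h, and 4 higher and 11 lower at 96 h.

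Markers of cell types moved over the same times. For reference, 16.1% of all genes were lower and 20.8% higher at 24 h, and 16.1% lower and 21.8% higher at 96 h. Of 12 cardiomyocyte markers, 1 was higher and 9 lower at 24 h, and 1 higher and 8 lower at 96 h; their mean log2 signal was 11.17 to 11.50 at 96 h and 11.75 to 11.90 at 0 h. All 7 endothelial markers were lower at each time, with a mean log2 signal of 5.28 to 5.55 at 96 h and 7.94 to 8.51 at 0 h. Of 10 fibroblast markers 1 was higher and 3 lower at 96 h, of 11 macrophage markers 3 and 3, of 7 smooth muscle and pericyte markers 3 and 1, and of 4 erythroid markers 0 and 4. Their part in the respiratory gene changes was not tested.

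**Figure D3:**
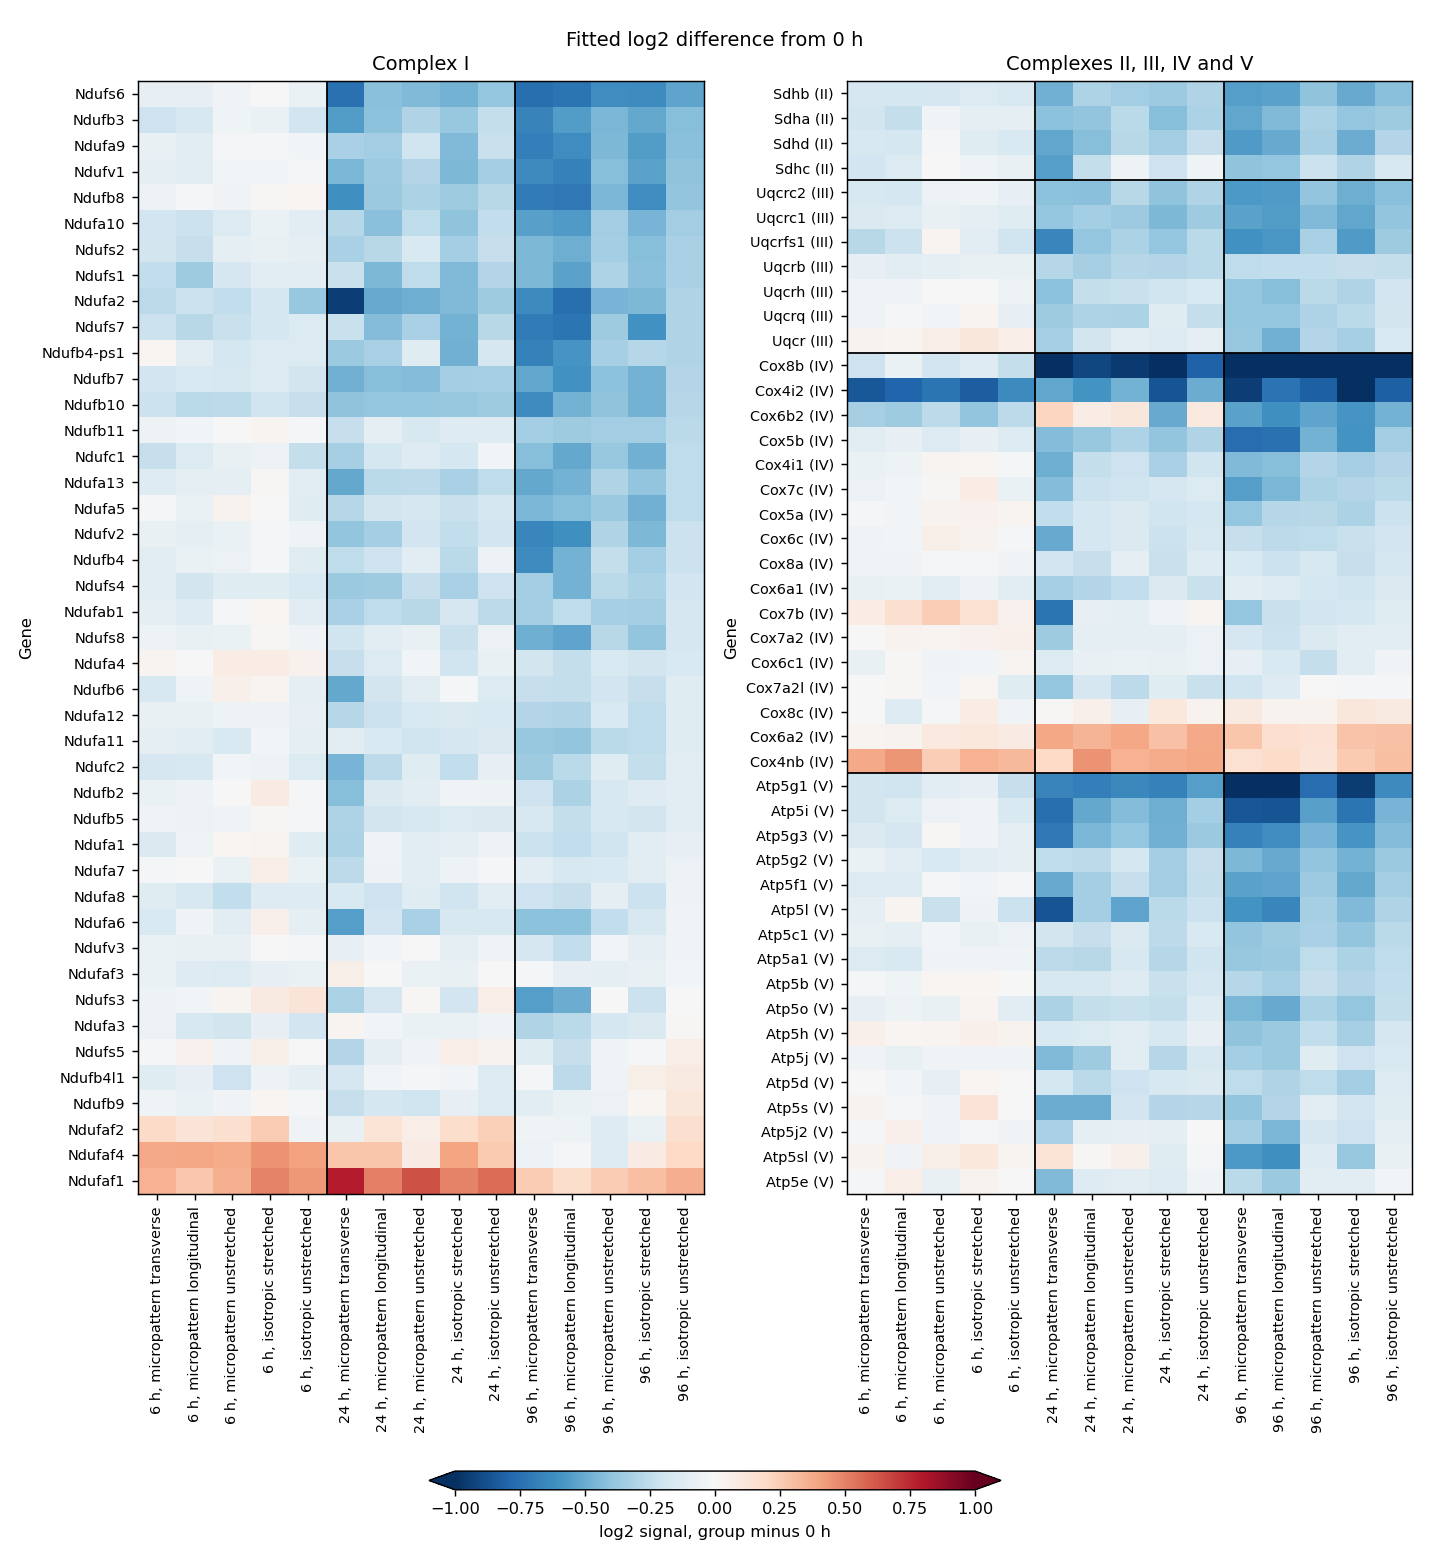
Fitted log2 difference from 0 h of each of the 88 genes (vertical, grouped by complex) in each of the 15 later groups (horizontal). The colour scale runs from -1 to 1. Cox8b reaches -2.70 in the 96 h transverse group, beyond the scale, and Ndufaf1, Cox6a2 and Cox4nb are among those higher at 24 h.

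The 88 genes lay below 0 h in median in every tissue at every time. The median log2 difference of the 88 genes from 0 h at 6, 24 and 96 h was -0.08, -0.33 (-0.25 without replicate 2) and -0.39 in transversely stretched tissue and -0.08, -0.24 and -0.42 in longitudinally stretched tissue. It was -0.04, -0.17 and -0.27 in unstretched anisotropic tissue. In isotropic tissue it was -0.02, -0.22 and -0.32 with stretch, and -0.07, -0.16 and -0.19 without. At 96 h Cox8b was the lowest of the 88 genes in all 5 tissues, at -2.70, -2.62, -1.56, -2.16 and -1.60 in the same order. The highest was Cox6a2 in transversely stretched tissue (0.28), Cox4nb in longitudinally stretched tissue (0.18) and Ndufaf1 in the other three (0.25, 0.30 and 0.36). These values share the 0 h arrays.

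Counted as steps and as labelled, more calls fell between 6 and 24 h than between 24 and 96 h. Longitudinally stretched tissue was the exception. Without a harvest term unstretched anisotropic tissue also had more in the later step, with 4 genes lower, against 1 higher in the earlier step. With the own harvest's 0 h array subtracted the steps tied in unstretched anisotropic tissue, at 2 each, and in unstretched isotropic tissue, at 1 each. With the 2 isotropic arrays exchanged unstretched isotropic tissue tied too, with 2 higher and 6 lower in the earlier step and 8 lower in the later one. Between 24 h and 6 h, 42 genes were lower and 3 higher in transversely stretched tissue (all genes 8.33% and 7.02%), 14 and 2 in longitudinally stretched tissue (7.86% and 6.26%), 12 and 1 in unstretched anisotropic tissue (6.44% and 7.09%), 32 and 0 in stretched isotropic tissue (11% and 6.16%) and 6 and 1 in unstretched isotropic tissue (7.79% and 5.9%). Among genes past the threshold Cox8b had the largest fall in 4 of these 5 (log2 changes of -1.12, -0.84, -0.77 and -1.003 in the order given), and Ndufv1 in unstretched isotropic tissue (-0.33). Cox6a2 was higher in 4 of the 5, by 0.36, 0.31, 0.29 and, in unstretched isotropic tissue, 0.29. The counts rest on single arrays. The transverse total of 45 was 14 without the 24 h replicate 2 (median -0.17, against -0.25 with it) and 24 without the 6 h replicate 2. The longitudinal total of 16 was 4 without the 6 h replicate 2, and 6 or 8 without the 24 h replicate 2 or 3. The unstretched anisotropic total of 13 was 4 or 7 without the 6 h replicate 2 or 3 and 2 without the 24 h replicate 3. The stretched isotropic total of 32 was 17 without the 6 h replicate 2, 20 without the 24 h replicate 1, and 26 or 20 with the 2 isotropic arrays exchanged or left out. The unstretched isotropic total of 7 was 2 to 4 without any 1 of its 6 arrays.

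Between 96 h and 24 h, 15 genes were lower in transversely stretched tissue (all genes 9.42% lower and 6.27% higher), 20 in longitudinally stretched tissue (5.11% and 5.6%), 5 in unstretched anisotropic tissue (7.74% and 6.61%), 1 in stretched isotropic tissue (1.63% and 3.96%) and 2 in unstretched isotropic tissue (2.4% and 2.23%). None of the 88 passed as higher in any of the 5 by limma. Cox8b had log2 changes of -1.38, -1.71, -1.03 and -0.79 in the first, the second, the fourth and the fifth of these tissues. Cox6b2 was lower in 4 of the 5 (-0.75, -0.69, -0.64 and, in unstretched isotropic tissue, -0.57). Ndufaf1, higher than 0 h at every time in isotropic culture, was lower at 96 h than at 24 h in transversely stretched (-0.53) and unstretched anisotropic tissue (-0.38). It was also called lower in longitudinally stretched tissue (1.26-fold), where it was not among the 4 largest falls. Cox6a2 was lower in the unstretched anisotropic step (-0.25). The transverse count of 15 was 12 without the 24 h replicate 2. The transverse median of -0.06 was -0.17 without the 24 h replicate 2 and 0.06 without the 24 h replicate 1. The longitudinal total of 20 was 9 without the 24 h replicate 1 or 3, 12 without the 96 h replicate 1 and 9 without the 96 h replicate 3. The unstretched anisotropic total of 5 was 3 or 1 without the 24 h replicate 1 or 2 and 2 without the 96 h replicate 2. The unstretched isotropic total of 2 was 0, 1 or 1 without the 24 h replicate 1, 2 or 3 and 0 without the 96 h replicate 3. The stretched isotropic count of 1 was 6 without the 24 h replicate 1. With the 2 isotropic arrays exchanged or left out, it was 15 or 8, and the unstretched isotropic count 8 or 5.

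No respiratory gene was called for stretch itself at 6 h. None of the 88 genes passed the threshold with transverse, longitudinal or isotropic stretch against no stretch (limma, with 1, 1 and 0 at an unadjusted p under 0.05), and of all genes 0%, 0.0968% and 0.00538% did. The median log2 changes were -0.03, -0.04 and 0.04. In harvest 5, the only one that holds both groups, 64 of 88 genes were lower with transverse stretch (median -0.08). With longitudinal stretch 81 were lower in that harvest (median -0.10). With isotropic stretch 47, 19 and 20 were lower in harvests 1, 2 and 3 (medians -0.01, 0.04 and 0.10). At 24 h, transverse and longitudinal stretch again had 0 calls (28 and 4 at an unadjusted p under 0.05, against 1.46% and 2.23% of all genes called), with medians of -0.14 and -0.04. Transverse stretch had 2 calls without the unstretched replicate 3, 19 without transverse replicate 1 and 8 without transverse replicate 3. Without transverse replicate 2 it had 0 calls, 2 genes at an unadjusted p under 0.05 and a median of -0.06, and the median was -0.24 without transverse replicate 1 and -0.22 without the unstretched replicate 3. In that array many genes were low: Cox7b had 8.96, against 10.55 and 10.56 in the other arrays of the group, and Sdhc had 9.81, against 11.13 and 10.92. It was not low in Ndufs7 (10.73, against 10.23 and 10.37) or Cox6a2 (11.996, against 12.06 and 12.13). These 4 genes were chosen after their values were seen. In the 1 harvest that holds both groups, 20 of 88 genes were lower with transverse stretch, with a median of 0.09.

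In isotropic tissue at 24 h, 1 gene was lower with stretch and none higher, against 2.95% and 0.978% of all genes. This was Cox6b2, with log2 signals of 5.66, 6.04 and 6.38 in stretched tissue and 6.79, 6.68 and 6.42 in unstretched tissue. The groups did not overlap, but came close to each other in replicate 3 of each. Its log2 change was -0.60 (SE 0.13, limma adjusted p = 0.00482), and -0.38 (adjusted p = 0.0734) without the stretched replicate 1, the array that lay with 96 h tissue. The count was 0 without the unstretched replicate 1 or the stretched replicate 1 and 2 without the stretched replicate 3. It was 2 with the 2 isotropic arrays exchanged, and 1 with both left out.

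At 96 h a small set of respiratory genes was called lower with stretch in anisotropic tissue, led by Cox8b, Ndufs3 and Atp5sl. With transverse stretch 10 of 88 genes (11.4%) were lower and none higher, against 8.65% and 6.39% of all genes. With longitudinal stretch 9 (10.2%) were lower and none higher, against 5.39% and 4.31%. The transverse share is near that of all genes, and the longitudinal one is above it in this fit with a harvest term. Without a harvest term 4 and 3 genes were lower with transverse and longitudinal stretch, and none higher. Of all genes 11.1% and 9.72% were then called in either direction. With the own harvest's 0 h array subtracted it was 4 and 7 genes, against 7.92% and 7.16%. In the fit with a harvest term the median log2 change was -0.13 with both directions of stretch. Below 0 were 73 and 79 of 88 genes, and the medians over all genes were 0.02 and 0.01. The same unstretched arrays serve both comparisons, and 8 genes were lower in both: Cox8b, Ndufs3, Atp5sl, Ndufs7, Ndufv2, Atp5i, Atp5g1 and Cox5b. Ndufv1 was called with longitudinal stretch alone, and Ndufb4 and Ndufa9 with transverse stretch alone. Of these, Ndufv2, Atp5i and Ndufa9 were named after their values were seen.

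**Figure D4:**
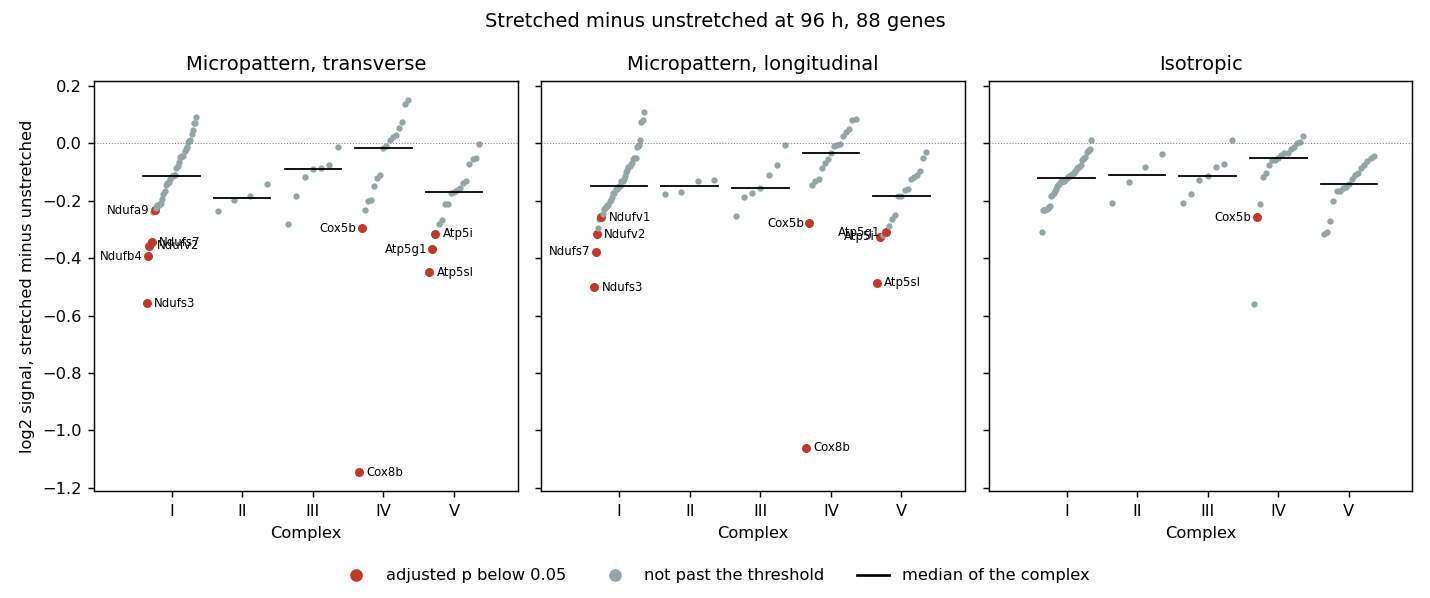
Fitted log2 change of each of the 88 genes at 96 h, stretched minus unstretched (vertical axis), by complex (horizontal axis), in transverse, longitudinal and isotropic panels. Points are genes, red past the threshold and grey not, and lines are medians of the complexes; micropattern stands for anisotropic tissue. Cox8b is the lowest point in all 3 panels, at -1.15, -1.06 and -0.56.

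Cox8b had log2 signals of 8.25, 8.27 and 7.59 with transverse stretch, 8.64, 7.53 and 7.55 with longitudinal stretch, and 9.57, 8.64 and 8.95 without stretch. All transverse arrays were below the unstretched ones, and longitudinal replicate 1 met the lowest of them. The change was -1.15 (SE 0.22, limma adjusted p = 0.000411) with transverse and -1.06 (SE 0.24, adjusted p = 0.00299) with longitudinal stretch, 2.21-fold and 2.08-fold lower. Ndufs3, a core subunit of the peripheral arm of complex I, had 9.66, 9.76 and 10.04 with transverse stretch, 9.90, 9.65 and 9.96 with longitudinal stretch and 10.50, 10.12 and 10.24 without. Neither stretched group overlapped with the unstretched one. Its log2 change was -0.56 (SE 0.10, adjusted p = 0.000278) and -0.50 (SE 0.11, adjusted p = 0.00276). Atp5sl, which despite its name is listed as Dmac2 in RefSeq and takes part in building complex I, had 6.66, 6.66 and 7.13 with transverse stretch, 6.69, 6.75 and 6.79 with longitudinal stretch and 7.17, 7.21 and 7.36 without. There was again no overlap, and the log2 changes were -0.45 (SE 0.10) and -0.49 (SE 0.10). The calls of these 3 genes in both directions held under every alternative tried.

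Of the core subunits of complex I, 3 of 7 were lower with transverse stretch and 4 of 7 with longitudinal stretch, with medians of -0.22 and -0.26. By complex, the medians with transverse and longitudinal stretch were -0.11 and -0.15 in complex I, -0.19 and -0.15 in complex II, -0.09 and -0.16 in complex III, -0.02 and -0.03 in complex IV and -0.17 and -0.18 in complex V. The median of complex IV was the nearest to 0 although it holds Cox8b. Its 17 entries also include Cox4nb, which is no respiratory gene, and Cox4i2, Cox6c1 and Cox8c, which lay below the median signal of all genes. This median therefore does not stand for the ordinary subunits of complex IV alone. Cox5b, a nuclear subunit that faces the matrix, had 10.10, 10.30 and 9.96 with transverse stretch, 10.20, 10.02 and 10.14 with longitudinal stretch and 10.50, 10.32 and 10.41 without. No stretched array reached the unstretched range. Its log2 changes were -0.30 (SE 0.08, adjusted p = 0.00521) and -0.28 (SE 0.08, adjusted p = 0.0194). Atp5g1 had 9.41, 9.52 and 9.36 with transverse stretch, 9.50, 9.26 and 9.43 with longitudinal stretch and 9.97, 9.63 and 9.57 without, also apart, with log2 changes of -0.37 and -0.31. Cox6a2 was at 0.14 with transverse stretch (adjusted p = 0.197) and 0.03 with longitudinal stretch. Ndufb4 has 3 probe sets, 1 of them dim (mean log2 signal 3.74), and its transverse call was lost with their mean (adjusted p = 0.218).

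The number of calls depended on the unstretched arrays. Without the unstretched anisotropic replicate 2, whose 88-gene median was -0.438 from 0 h against -0.156 and -0.305 in its group, 26 genes were called with transverse stretch and 20 with longitudinal stretch, with medians of -0.22 and -0.23. Without unstretched replicate 1 the counts were 4 and 3 and the medians -0.08 and -0.09. Without unstretched replicate 3 the longitudinal count was 3. It was 4 without longitudinal replicate 2 and 3 without longitudinal replicate 3. Harvests also differed. In harvest 1, 76 of 88 genes were lower with transverse and 85 with longitudinal stretch (medians -0.19 and -0.26). In harvest 2, by contrast, 36 were lower with transverse stretch (median 0.03). Harvest 1 was the only one that held both longitudinally stretched and unstretched anisotropic tissue at 96 h. The other arrays of the longitudinal comparison came from different harvests and were compared through the fitted harvest term. Ndufs3 was at -0.84 and -0.36 and Atp5sl at -0.51 and -0.55 with transverse stretch in harvests 1 and 2, Cox8b at -1.33 and -0.37, and Cox5b at -0.40 and -0.02.

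In isotropic tissue at 96 h, 1 gene was lower with stretch and none higher, against 1.43% and 1.51% of all genes. It was Cox5b, with 10.23, 10.44 and 10.18 in stretched tissue and 10.64, 10.50 and 10.47 in unstretched tissue, which did not overlap. Its change was -0.26 (SE 0.07, limma adjusted p = 0.045). With the 2 isotropic arrays exchanged the adjusted p was 0.0635, and with both left out 0.16, so the call was lost. The count was 0 without unstretched replicate 1 or 3 or stretched replicate 1 or 3, and 2 without stretched replicate 2. The median of the 88 genes was -0.11, with 83 below 0, and -0.11 and -0.10 with the arrays exchanged and left out. It was -0.07 without stretched replicate 3. Within harvests 1, 2 and 3, 75, 48 and 85 genes were lower (medians -0.14, -0.01 and -0.21). Cox8b was at -0.56 (adjusted p = 0.184), Ndufs3 at -0.22 (adjusted p = 0.313), Atp5sl at -0.31 (adjusted p = 0.0629) and Atp5g1 at -0.32 (adjusted p = 0.0538).

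Other mitochondrial lists at 96 h gave, for transverse, longitudinal and isotropic stretch, 13, 10 and 2 of 66 mitochondrial ribosome genes lower and none higher (medians -0.13, -0.11 and -0.19), and 2, 2 and 0 of 15 tricarboxylic acid cycle genes lower. Of 21 biogenesis regulators 0 were lower in each and 1, 0 and 0 higher. For these lists and the markers below, the shares of all genes were 8.65%, 5.39% and 1.43% lower and 6.39%, 4.31% and 1.51% higher. Markers of other cells moved with stretch at the same time. Fibroblast markers were lower in 5, 5 and 2 of 10, with mean log2 signals of 8.35 to 8.83 with transverse and 8.77 to 8.83 with longitudinal stretch, and 10.02 to 10.44 without. Macrophage markers were lower in 9, 9 and 5 of 11, with 5.08 to 5.57 and 4.84 to 5.59 with stretch, and 6.74 to 6.90 without. In isotropic tissue the fibroblast mean was 8.62 to 9.49 with stretch and 8.23 to 10.17 without, and the macrophage mean 5.06 to 5.92 and 5.84 to 6.55. Cardiomyocyte markers were higher in 3, 2 and 1 of 12 and lower in 2, 2 and 0, with 11.38 to 11.59, 11.50 to 11.52 and, without stretch, 11.05 to 11.65. Of 7 endothelial markers 2, 1 and 0 were lower, and of 7 smooth muscle and pericyte markers 2, 1 and 0 were higher and 2, 1 and 0 lower. The part of these cells in the changes of the respiratory genes was not tested.

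**Figure D5:**
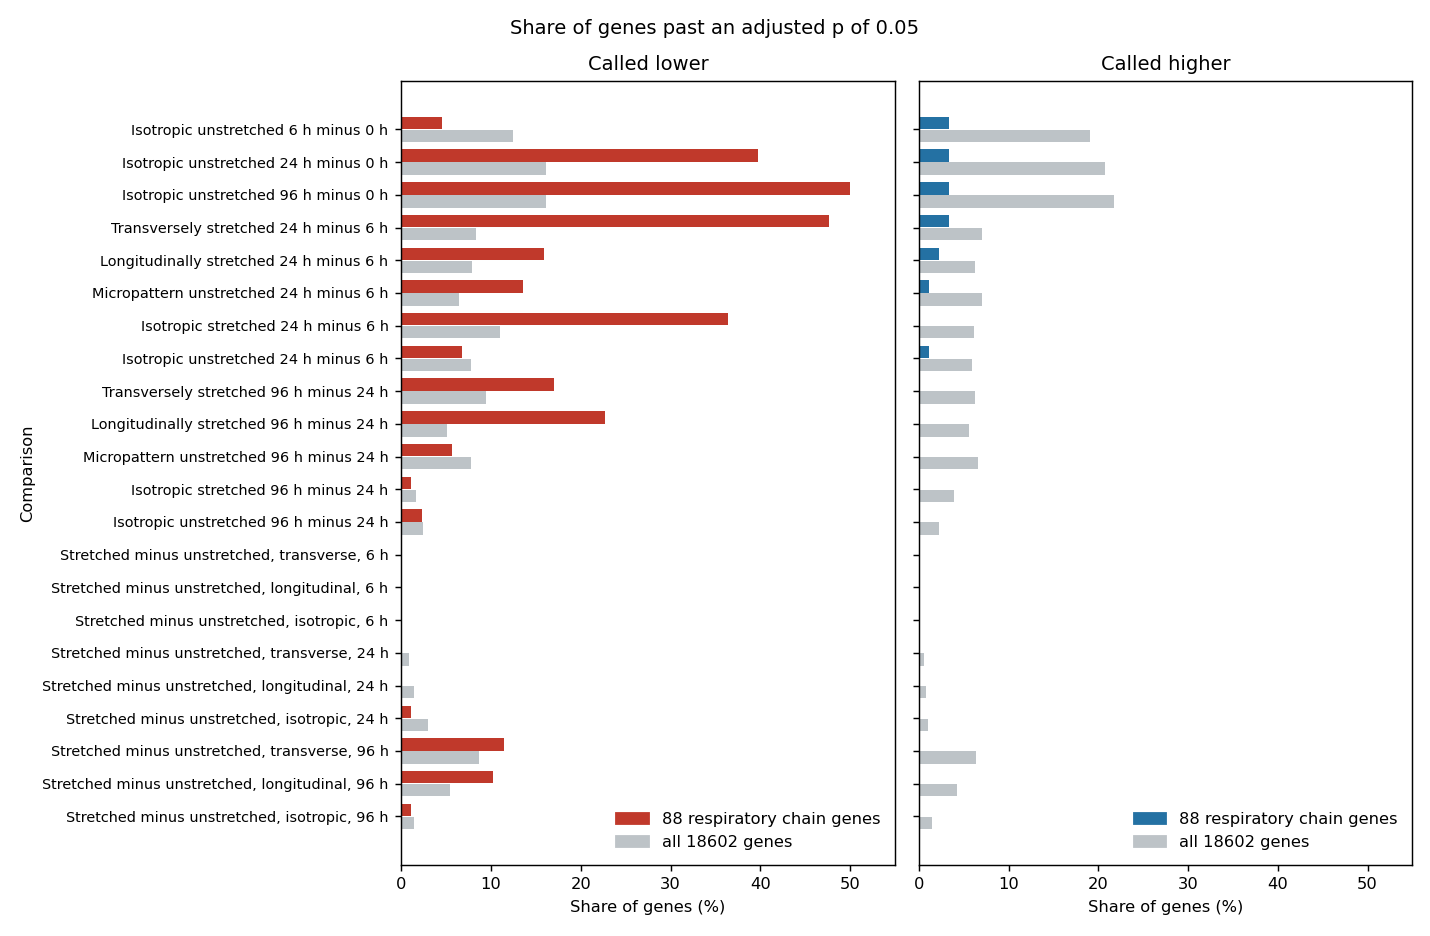
Share of genes called lower and higher (percent, horizontal axis) among the 88 respiratory genes and among all 18602 genes, for each comparison. Bars start at 0. At 96 h the share of the 88 genes lower with transverse stretch was 11.4%, against 8.65% of all genes.

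For these genes no difference between the directions of stretch passed the threshold. Between transverse and longitudinal stretch, 0 of 88 genes were called at 6, 24 or 96 h by limma (0, 26 and 1 at an unadjusted p under 0.05), and 0.0215%, 0% and 0% of all genes were. The medians were 0.00, -0.08 and 0.02, and without transverse replicate 1 the 24 h count was 10 and the median -0.18. Without transverse replicate 2 the 24 h median was -0.01, with 0 calls and 1 gene at an unadjusted p under 0.05, and without longitudinal replicate 2 it was -0.13. At 96 h Cox8b differed by -0.09 between the directions (adjusted p = 0.987). Between unstretched anisotropic and isotropic tissue there were also 0 calls at each time (0, 0 and 4 at an unadjusted p under 0.05), against 0%, 0% and 0.0161% of all genes, with medians of 0.01, -0.02 and -0.06; exchanging or leaving out the 2 isotropic arrays left the 96 h count at 0.

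The stretch responses themselves were also set against each other. At 96 h the response to transverse stretch minus that of isotropic tissue was -0.59 for Cox8b (SE 0.31, limma adjusted p = 0.545) and -0.34 for Ndufs3 (adjusted p = 0.464), and the longitudinal response minus the isotropic one was -0.50 (SE 0.32, adjusted p = 0.778) and -0.28 (adjusted p = 0.776). None of the 88 genes passed in either (limma, with 1 and 0 at an unadjusted p under 0.05), where 0% of all genes did. The same differences at 24 h also had 0 calls (8 and 1 at an unadjusted p under 0.05, against 0% of all genes in each; 2 for transverse stretch without its replicate 2), or 1 each without the isotropic stretched replicate 3, and at 6 h again 0 (1 and 1, against 0% and 0.0215%). A difference between the layouts was thus not shown for any gene called in anisotropic tissue alone.

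Change of the response over time passed the threshold for 1 gene only, and that call was not robust. It was Atp5sl, in the transverse response at 96 h minus that at 24 h (log2 difference -0.54, SE 0.14, limma adjusted p = 0.0485). Of all genes 0.618% were lower and 0.258% higher, so a single call is near the share of all genes. The call was lost without any 1 of 10 of the 12 arrays involved. It was also lost without a harvest term and under other alternatives given further on. Without the 24 h transverse replicate 1, Cox6c, a complex IV subunit named after its value was seen, passed instead (0.67, adjusted p = 0.0219). For the longitudinal and the isotropic response, 0 genes passed (5 and 1 at an unadjusted p under 0.05, against 0.29% and 0.242% of all genes). The longitudinal count was 1 without the 96 h unstretched replicate 2 or the longitudinal replicate 1, and the isotropic count 1 without the 24 h stretched replicate 3.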

How the data were processed

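RNA of 51 tissue samples was measured on Affymetrix arrays. The deposited values are log2 signals for 29214 probe sets, which the authors made with Affymetrix Expression Console and RMA per the submitters' processing notes, which also name limma but no versions. RMA scales all arrays to one distribution, so a change is relative to the whole array.

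In the deposited annotation 20360 probe sets have 1 gene symbol, 62 have several and 8792 have none. Of probe sets with one symbol in common, that of highest mean signal was used, and dim ones were not filtered out; 13 of the 88 genes had more than 1. Group means and harvest effects were fitted to all arrays with limma 3.58.1 in R 4.3.3 (data.table version 1.17.8), with 30 residual degrees of freedom, for 28 comparisons and 9 differences of responses. p-values were adjusted over 18602 genes per comparison. The procedure was tested on simulated data. Figures used Python 3.11.15 and matplotlib 3.10.9.

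The labels give a harvest for each array, and harvest, not replicate number, pairs the arrays. Deviations from group means correlated at 0.219 on average within a harvest (220 pairs) and -0.048 between harvests (995 pairs). Named genes were key members fixed by role (Ndufa4l2, Cox6b1, Cox7a1 and Cox8h among these were not analysed here) and, per comparison, up to 4 largest rises and 4 largest falls past the threshold; others are named as chosen afterwards or by counts. The genes, lists and tests were chosen with earlier results of these data known. Alternatives were each array left out, no harvest term, the own harvest's 0 h array subtracted, quantile scaling repeated, dim genes left out, probe sets averaged, and 2 isotropic arrays exchanged or left out.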

Additional observations from a re-analysis of the deposited data

Results flagged for a closer look

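Ndufb10, an accessory subunit of complex I, had a log2 signal of 9.76 at 0 h in harvest 6, while the nearest of the other 5 arrays was at 9.5. The gap is 0.636 of the whole range of the group, past the critical value of 0.625 for 6 arrays; chance exceeds it in about 1 in 20 groups, and 44 genes were screened at 0 h.

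The response of Atp5sl to transverse stretch at 96 h minus that at 24 h was -0.54 on the log2 scale (SE 0.14, limma adjusted p = 0.0485). At 24 h its log2 signals were 7.65, 7.40 and 7.63 with transverse stretch and 7.57, 7.44 and 7.32 without. At 96 h they were 6.66, 6.66 and 7.13 with transverse stretch and 7.17, 7.21 and 7.36 without. The difference did not pass without a harvest term, with the own harvest's 0 h array subtracted, with quantile scaling repeated or with dim genes left out, and was also lost when any 1 of 10 of the 12 arrays was left out.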

How the results depend on the processing

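No call of a named gene changed sign under any alternative tried, but some counts turned from mostly lower to mostly higher. Between 24 h and 6 h, without a harvest term, 1 gene was higher and 0 lower in unstretched anisotropic tissue, and 2 higher and 1 lower in longitudinal tissue; with the own harvest's 0 h array subtracted, 1 was higher and 0 lower in unstretched isotropic tissue. Without a replicate block (no harvest term), 12 of 37 counts of genes past the threshold moved by over 1.5 times. These were, at 96 h, 4 with transverse, 3 with longitudinal and 0 with isotropic stretch; 24 for 24 h against 0 h; for 24 h against 6 h, 15 in transverse, 3 in longitudinal, 1 in unstretched anisotropic, 9 in stretched isotropic and 2 in unstretched isotropic tissue; for 96 h against 24 h, 6 in longitudinal and 1 in unstretched isotropic tissue; and 0 for the change of the transverse response. With the own harvest's 0 h array subtracted, 13 of 34 moved: 4 with transverse and 0 with isotropic stretch at 96 h, 0 with isotropic stretch at 24 h; 18, 2, 2, 9 and 1 for 24 h against 6 h in the same order; 8, 6, 2 and 1 for 96 h against 24 h in transverse, longitudinal, unstretched anisotropic and unstretched isotropic tissue; and 0 for the change of the transverse response. With the 2 isotropic arrays exchanged, counts were 2 (isotropic stretch, 24 h), 0 (isotropic stretch, 96 h), 2 (transverse stretch, 24 h), 15 (stretched isotropic, 96 h against 24 h) and 8 (unstretched). With both left out they were 0 (isotropic stretch, 96 h), 1 (transverse stretch, 24 h), 20 (stretched isotropic, 24 h against 6 h), 8 (stretched isotropic, 96 h against 24 h) and 5 (unstretched). Quantile scaling gave 2 (stretched isotropic, 96 h against 24 h) and 0 (change of the transverse response). Leaving out dim genes gave 2 (isotropic stretch, 96 h), 1 (transverse stretch, 24 h) and 0 (change of the transverse response). Averaged probe sets gave 1 (transverse stretch, 24 h) and 2 (stretched isotropic, 96 h against 24 h). The causes were not tested. With single arrays left out, the counts ranged as follows: 3 to 9, 28 to 39 and 36 to 49 for 6, 24 and 96 h against 0 h; 14 to 56, 4 to 15, 2 to 12, 17 to 36 and 2 to 4 for 24 h against 6 h in transverse, longitudinal, unstretched anisotropic, stretched isotropic and unstretched isotropic tissue; 11 to 15, 9 to 17, 1 to 7, 1 to 6 and 0 to 3 for 96 h against 24 h; 0 to 19 and 4 to 26 with transverse stretch at 24 and 96 h, 3 to 20 with longitudinal stretch at 96 h, and 0 to 2 with isotropic stretch at 24 and 96 h; 0 to 10 between directions at 24 h; and 0 to 1 for the transverse and the longitudinal minus the isotropic response at 24 h and for the change of each of the 3 responses from 24 h to 96 h. Of 157 calls of named genes, 71 were lost without a harvest term, 55 of 104 with the 0 h array subtracted, 10 with quantile scaling, 5 and 9 with the isotropic arrays exchanged and left out, 4 with averaged probe sets and 2 of 153 without dim genes; 217 of 1107 were lost when an array was left out. The 4 genes below the median of all genes are close to background.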
